A study of Homo sapiens with 6 samples.

Results

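Of the 771 gene symbols listed in the deposited tables, 8 belong to replication-dependent genes of the core histones H3 and H4. They were found by their older HIST symbols in the first column of every table. The H3 genes are HIST1H3C (now H3C3) and HIST2H3C (H3C14). The H4 genes are HIST1H4E (H4C5), HIST1H4H (H4C8), HIST1H4J (H4C11), HIST2H4A (H4C14), HIST2H4B (H4C15) and HIST4H4 (H4C16). The coding parts of HIST2H4A and HIST2H4B are identical, so their values were also summed. The series measured gene expression by RNA sequencing in ES2, a human epithelial ovarian cancer cell line. Its groups are 3 libraries of cells whose RUNX1-IT1 was targeted with an antisense oligonucleotide (RUNX1-IT1 ASO) and 3 of cells that received a control oligonucleotide (control ASO). RUNX1-IT1 is a long non-coding RNA made from an intron of RUNX1, and antisense oligonucleotides bind a complementary RNA, often to have it cut. The question in the design is how this knockdown changes expression, and all 6 libraries came from the same line, with no other allele or agent named in the labels.

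Histones H3 and H4 form the tetramer at the centre of the nucleosome, around which DNA is wrapped. Their replication-dependent genes lie in clusters, have no introns in their main transcripts and are transcribed mostly in S phase, when new chromatin needs histones. Their mRNAs end in a conserved stem-loop bound by the stem-loop binding protein SLBP in place of a poly(A) tail, although some of these genes also give polyadenylated transcripts.

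The stem-loop is shown because it is the shared element of this mRNA class, and because its letters differ between some members. It was found in the GENCODE release 29 transcripts of 7 of the 8 members, starting 23 to 45 bases after the stop codon. For HIST1H3C the only annotated transcript, 411 bases long, holds the coding part alone. In HIST4H4 it was present in 3 of 6 annotated transcripts, and in the other members in every one. Capitals mark the arms that pair with each other, and lower case marks the loop.
HIST1H4E: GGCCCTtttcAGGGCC
HIST1H4H: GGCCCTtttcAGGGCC
HIST1H4J: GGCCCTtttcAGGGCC
HIST4H4: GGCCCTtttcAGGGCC
HIST2H4A: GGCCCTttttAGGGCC
HIST2H4B: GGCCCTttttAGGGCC
HIST2H3C: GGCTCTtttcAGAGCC
Counted from the first base of the stem-loop of HIST1H4E, HIST2H4A and HIST2H4B carry C10T in the loop. HIST2H3C carries C4T and G13A, a change on each arm. As it is the only H3 member with a stem-loop found, a HIST2 trait and an H3 trait cannot be told apart there.

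The promoters are shown because the H4 members share a short element that the H3 members lack. All 8 members matched RefSeq promoters of build GRCh38.p14, and the 250 bases before the start were searched on both strands for TATAAA, for CCAAT and for GTCCG, the core of the H4 subtype element. The last of these stood 44 to 46 bases upstream of the start on the gene strand in 6 of 6 H4 members and in neither H3 member, and 13.9% of 35116 RefSeq promoters hold it on the gene strand and 24.2% on either strand. For HIST2H4B, on the minus strand, the RefSeq gene reaches to base 149861240, so its window lies inside the gene. Its distances are from the start used for its promoter. In each H4 window below, 30 bases long, capitals mark GTCCG. The windows lie at chr6:26204552-26204581 on the plus strand (HIST1H4E), chr6:26285563-26285592 on the minus strand (HIST1H4H), chr6:27824033-27824062 on the plus strand (HIST1H4J), chr1:149832599-149832628 on the plus strand (HIST2H4A), chr1:149861188-149861217 on the minus strand (HIST2H4B) and chr12:14771159-14771188 on the minus strand (HIST4H4).
HIST1H4E: agtcttcatttagGTCCGaattcccggcat
HIST1H4H: agtcttcaattagGTCCGaattcccggcat
HIST1H4J: ggttctcagttcgGTCCGccaactgtcgta
HIST2H4A: ggttttcaatctgGTCCGatactcttgtat
HIST2H4B: ggttttcaatctgGTCCGatactcttgtat
HIST4H4: tgttttcaaacagGTCCGcatcgagagact
The 250 upstream bases of HIST2H4A and HIST2H4B were identical throughout. CCAAT was found in 2 of 2 H3 members and in 0 of 6 H4 members, against 32% of all promoters on either strand. TATAAA was found in 1 of 2 H3 members and in 2 of 6 H4 members (HIST1H4J and HIST4H4), against 10.7% of all promoters on either strand. Counted from the start, it began at -28 in HIST2H3C and -31 in HIST1H4J. In HIST4H4 it began at -250, the far edge of the searched stretch. The last 120 bases before the start are printed for the H3 members, at chr6:26045264-26045383 on the plus strand for HIST1H3C and chr1:149841209-149841328 on the minus strand for HIST2H3C. Capitals mark CCAAT and, in HIST2H3C, TATAAA.
HIST1H3C: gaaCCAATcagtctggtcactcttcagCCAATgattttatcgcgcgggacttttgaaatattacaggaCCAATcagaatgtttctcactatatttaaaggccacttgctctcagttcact
HIST2H3C: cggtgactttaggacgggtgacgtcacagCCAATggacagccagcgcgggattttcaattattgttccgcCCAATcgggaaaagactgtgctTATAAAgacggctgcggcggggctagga
A match in these windows describes the letters and not a bound site.

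How far reads can be told apart differs between the members. The 6 H4 members encode the same 103-residue protein, yet their coding sequences of 312 bases were 80.4 to 89.1% identical over 14 pairs and 100% identical for HIST2H4A and HIST2H4B. The H3 members differed at 1 of 136 residues, C97S counted from the first methionine of HIST1H3C, and were 84.4% identical over 411 coding bases. Every 100-base stretch of the coding part of HIST2H4A recurs in HIST2H4B, and the same holds the other way round. Every such stretch of HIST1H4J recurs in HIST1H4K, and every such stretch of HIST2H3C in HIST2H3A or HIST2H3D. HIST1H4K, HIST2H3A and HIST2H3D are not listed in the tables, so no sum with them could be made. A value of HIST1H4J or HIST2H3C may hold reads of these copies or lack reads given to them. For HIST1H3C, HIST1H4E, HIST1H4H and HIST4H4 none of the coding stretches recurred among the 123 histone genes searched. HIST2H4A and HIST2H3C lie on opposite strands of chromosome 1 and overlap by 230 bases in GENCODE. In RefSeq they do not overlap, as HIST2H4A ends at base 149833052 and HIST2H3C starts at base 149840687. The sources used here give neither the annotation nor whether counting used strand. Whether reads of this stretch were shared between the genes is therefore not known.

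The tables hold 1113 entries, which made up 0.363 to 0.389% of each RUNX1-IT1 ASO library and 1.02 to 1.11% of each control ASO library. Values are in CPM, read counts scaled to the size of the library. The smallest fold between group means in the tables was 1.99, so the entries appear to have been picked because they differed between these 6 libraries. An adjusted p of a listed gene is therefore not independent evidence that it changed. The spacing of low values implies 17100000 to 18700000 reads in the RUNX1-IT1 ASO libraries and 17300000 to 21200000 in the control ASO libraries, and 3 reads then correspond to 0.160 to 0.176 CPM in RUNX1-IT1 ASO libraries and 0.141 to 0.174 CPM in control ASO libraries, a floor that covers counting error only. RUNX1-IT1 is not listed, so its knockdown is not analysed here. Of 10 ovarian epithelial markers only PAX8 is listed, at 2.31 to 3.48 CPM in RUNX1-IT1 ASO libraries and 6.55 to 7.97 CPM in control ASO libraries. Of 7 immune markers only ITGAM is listed, at 0.059 to 0.214 CPM in RUNX1-IT1 ASO libraries and 1.62 to 1.84 CPM in control ASO libraries, and none of 7 fibroblast or 4 endothelial markers is listed. Whether these markers had a part in any result below was not tested. In bulk RNA, fewer cells with a transcript and less transcript per cell cannot be told apart.

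Together, the H3 and H4 genes were several-fold lower under the RUNX1-IT1 ASO. The sum over the 8 members was 5.83, 6.67 and 6.09 CPM in replicates 1, 2 and 3 of the RUNX1-IT1 ASO, against 36.5, 29.4 and 31.7 CPM in replicates 1, 2 and 3 of the control ASO, a 5.25-fold difference of the means. The 6 H4 genes summed to 5.48 ± 0.293 CPM in RUNX1-IT1 ASO libraries and 27.8 ± 1.51 CPM in control ASO libraries (SD, n = 3 each), 5.07-fold lower. The 2 H3 genes summed to 0.717 ± 0.137 CPM in RUNX1-IT1 ASO libraries and 4.77 ± 2.15 CPM in control ASO libraries, 6.66-fold lower. Without HIST2H4A and HIST2H4B, the other members summed to 2.86 ± 0.297 CPM under the RUNX1-IT1 ASO and 12.2 ± 2.19 CPM under the control ASO, 4.28-fold lower. The groups did not overlap in any of these sums.

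**Figure D1:**
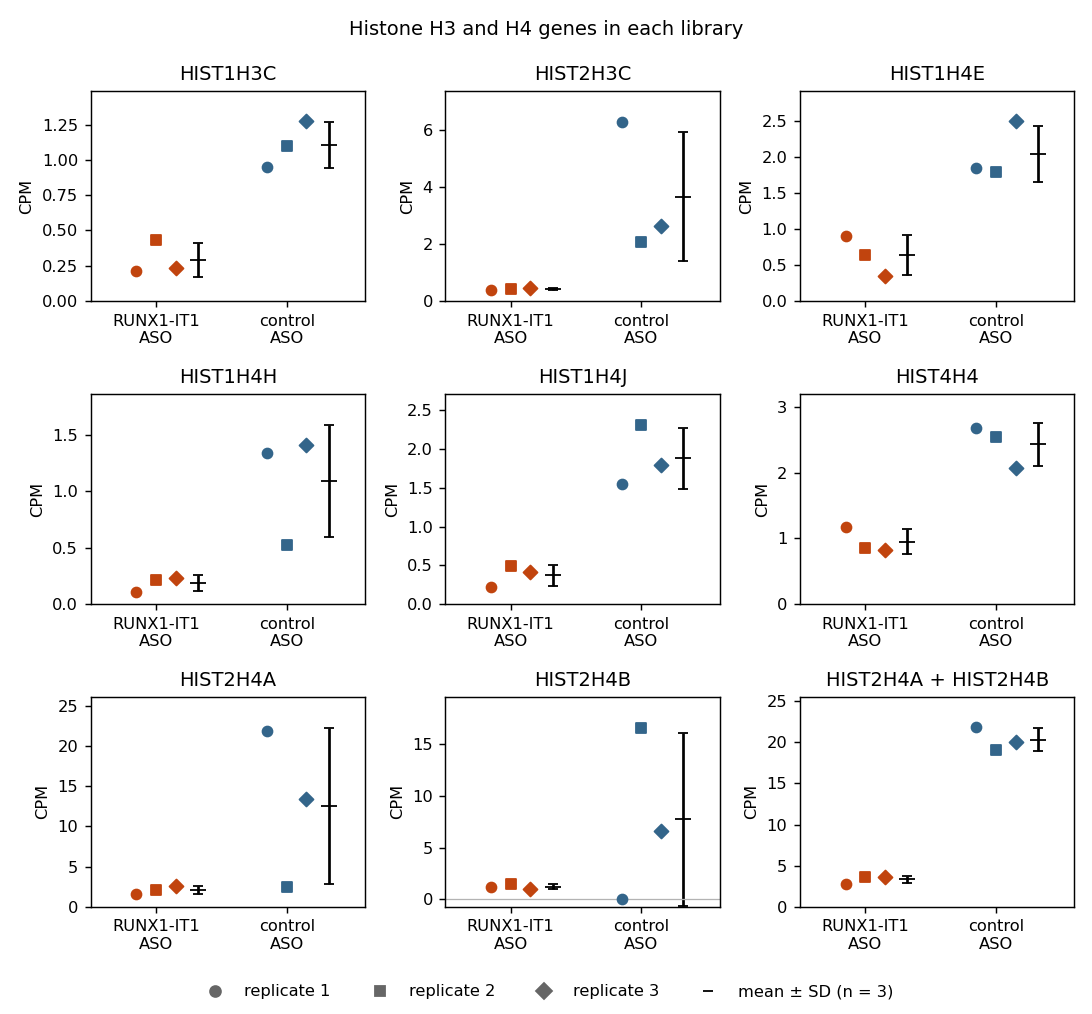
CPM of each H3 and H4 gene and of HIST2H4A and HIST2H4B summed, 1 point per library, with the RUNX1-IT1 ASO left of the control ASO in every panel. Symbols give the replicate number, and black bars the mean ± SD (n = 3). The groups are apart in the panels of 6 members, as they are for 95.7% of all named genes, and in that of the sum, which is at 2.84 to 3.603 CPM under the RUNX1-IT1 ASO and 19.1 to 21.8 CPM under the control ASO. They overlap for HIST2H4A and HIST2H4B alone.

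HIST2H4A and HIST2H4B, the H4 genes that cannot be told apart by their coding sequence, gave the largest part of the summed H3 and H4 signal. Their sum was 2.84, 3.603 and 3.57 CPM in replicates 1, 2 and 3 of the RUNX1-IT1 ASO, against 21.8, 19.1 and 20.03 CPM in replicates 1, 2 and 3 of the control ASO. The 3 RUNX1-IT1 ASO libraries all lay far below the control ASO libraries, and within each group the values were close together. The means were 3.34 ± 0.435 CPM under the RUNX1-IT1 ASO and 20.3 ± 1.41 CPM under the control ASO (SD, n = 3 each), 6.08-fold lower. On the scale of log2(CPM + 1), limma gave a change of -2.30 ± 0.11 (SE), with a 95% interval from -2.54 to -2.06 and an adjusted p of 2.97e-11. An exact two-sided permutation test of the summed CPM over libraries gave p = 0.1, the smallest that 3 against 3 libraries allow. The implied reads behind the sum were 53, 67 and 61 under the RUNX1-IT1 ASO and 438, 329 and 425 under the control ASO.

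Taken singly, the members of this pair behaved otherwise. HIST2H4A was at 1.66, 2.10 and 2.58 CPM in replicates 1, 2 and 3 of the RUNX1-IT1 ASO, against 21.8, 2.43 and 13.4 CPM in replicates 1, 2 and 3 of the control ASO. Control ASO replicate 2 fell within the range of the RUNX1-IT1 ASO libraries, so the groups overlapped. HIST2H4B was at 1.18, 1.51 and 0.996 CPM in replicates 1, 2 and 3 of the RUNX1-IT1 ASO, against 0, 16.6 and 6.64 CPM in replicates 1, 2 and 3 of the control ASO. Here control ASO replicate 1 was listed at 0, where a count of 0 allows up to 0.149 CPM, and replicate 2 was the highest of all 6 libraries. The control ASO library without HIST2H4B was thus the one with the most HIST2H4A.

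**Figure D2:**
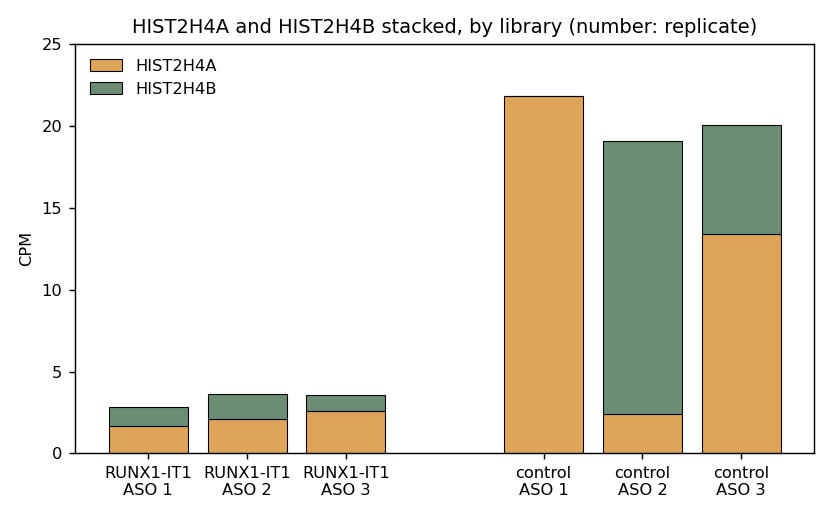
CPM of HIST2H4A and HIST2H4B stacked in each library, with RUNX1-IT1 ASO replicates on the left and control ASO replicates on the right. The stack height is the sum of both genes. The control ASO stacks are of similar height, 19.1 to 21.8 CPM, while the HIST2H4A part ranges between 12.8 and 100% of the stack.

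HIST2H4A made up 58.5, 58.2 and 72.1% of the sum in RUNX1-IT1 ASO replicates 1, 2 and 3, against 100, 12.8 and 66.8% in control ASO replicates 1, 2 and 3. The mean share was 62.9 ± 7.96% under the RUNX1-IT1 ASO and 59.9 ± 44.0% under the control ASO (SD, n = 3 each). The difference of 3.07 percentage points gave p = 0.9 in an exact two-sided permutation test, whose smallest value is 0.1. In control ASO libraries the coefficient of variation was 77.5% for HIST2H4A and 107.9% for HIST2H4B but 6.93% for their sum, against a median of 10.3% over the 489 tested genes. Among those genes HIST2H4B ranked 2 and HIST2H4A ranked 3 by this coefficient. In RUNX1-IT1 ASO libraries it was 21.8% for HIST2H4A, 21.1% for HIST2H4B and 13.04% for the sum, with a median of 18.4%.

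By limma HIST2H4A fell by 1.75 ± 0.48 (log2, SE, adjusted p = 0.00308), and HIST2H4B changed by -1.21 ± 0.70 with a 95% interval from -2.73 to 0.31 and an adjusted p of 0.11, so it was not called. Without control ASO replicate 1 the fold of HIST2H4A was 3.75 in place of 5.94. For HIST2H4B the fold was 9.49 without control ASO replicate 1 and 2.71 without control ASO replicate 2, in place of 6.32, with log2 changes of -2.39 (limma, adjusted p = 3.75e-09) and -0.32 (limma, adjusted p = 0.537). The log2 change of the sum stayed between -2.34 and -2.21 whichever single library was left out.

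HIST2H3C, an H3 gene of the same chromosome 1 cluster, had the largest fold of the 8 members when all libraries were kept. It was at 0.374, 0.430 and 0.469 CPM in replicates 1, 2 and 3 of the RUNX1-IT1 ASO, against 6.28, 2.09 and 2.64 CPM in replicates 1, 2 and 3 of the control ASO. The RUNX1-IT1 ASO libraries were close together but rested on 7 to 8 implied reads each, so this closeness does not show precision. Control ASO replicate 1 stood well above the other control libraries, on 126 implied reads against 36 and 56 in replicates 2 and 3. The means were 0.424 ± 0.0478 CPM under the RUNX1-IT1 ASO and 3.67 ± 2.28 CPM under the control ASO (SD, n = 3 each), 8.64-fold lower. On the log2 scale it fell by 1.61 ± 0.24 (SE, limma, adjusted p = 2.83e-05). Without control ASO replicate 1 the fold was 5.57 and the log2 change -1.23 (limma, adjusted p = 1.43e-07). Its fold was then below the 9.49 of HIST2H4B and level with the 5.56 of HIST1H4J.

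Control ASO replicate 1 was also the library with the highest HIST2H4A, which overlaps HIST2H3C on the opposite strand in GENCODE but not in RefSeq. In control ASO replicates 1, 2 and 3, HIST2H3C stood at 6.28, 2.09 and 2.64 CPM beside 21.8, 2.43 and 13.4 CPM of HIST2H4A. The coding part of HIST2H3C is also identical to that of HIST2H3A, which is not listed and overlaps HIST2H4B by 230 bases in GENCODE. Whether the shared stretch, or a split of reads with HIST2H3A, had a part in the HIST2H3C value of that library was not tested. HIST2H2AA3, an H2A gene annotated 995 bases from HIST2H3C in the same cluster, was at 3.48, 4.62 and 4.34 CPM in replicates 1, 2 and 3 of the RUNX1-IT1 ASO, against 13.1, 11.8 and 14.1 CPM in replicates 1, 2 and 3 of the control ASO. Its control libraries were close to each other and none stood apart, though a near-identical copy, HIST2H2AA4, may share its reads.

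HIST1H3C, the H3 gene of the large cluster on chromosome 6, was a low-count gene. It was at 0.214, 0.430 and 0.234 CPM in replicates 1, 2 and 3 of the RUNX1-IT1 ASO, against 0.947, 1.10 and 1.27 CPM in replicates 1, 2 and 3 of the control ASO. All libraries of the RUNX1-IT1 ASO lay below those of the control ASO. The means of 0.293 ± 0.119 CPM under the RUNX1-IT1 ASO and 1.11 ± 0.163 CPM under the control ASO (SD, n = 3 each) were 3.78-fold apart. They rested on 4 to 8 implied reads per RUNX1-IT1 ASO library and 19 to 27 per control ASO library. Its mean over all libraries, 0.700 CPM, was under the minimum of 1 CPM for testing. In a fit without that minimum it fell by 0.71 ± 0.14 on the log2 scale (SE, limma, adjusted p = 0.000194).

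HIST1H4J, an H4 gene of chromosome 6, was at 0.214, 0.484 and 0.410 CPM in replicates 1, 2 and 3 of the RUNX1-IT1 ASO, against 1.55, 2.32 and 1.79 CPM in replicates 1, 2 and 3 of the control ASO. The groups were well apart, with the lowest control ASO library 3.19 times the highest RUNX1-IT1 ASO library. The means were 0.369 ± 0.140 CPM under the RUNX1-IT1 ASO and 1.88 ± 0.394 CPM under the control ASO (SD, n = 3 each), 5.10-fold lower, and the log2 change was -1.07 ± 0.14 (SE, limma, adjusted p = 7.04e-06).

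HIST1H4E was at 0.909, 0.645 and 0.351 CPM in replicates 1, 2 and 3 of the RUNX1-IT1 ASO, against 1.84, 1.80 and 2.50 CPM in replicates 1, 2 and 3 of the control ASO. The groups did not overlap, though the RUNX1-IT1 ASO libraries spread over more than a doubling, on 6 to 17 implied reads. It averaged 0.635 ± 0.279 CPM under the RUNX1-IT1 ASO and 2.05 ± 0.393 CPM under the control ASO (SD, n = 3 each), 3.22-fold lower, and fell by 0.90 ± 0.15 on the log2 scale (SE, limma, adjusted p = 7.71e-05).

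HIST1H4H, whose promoter window differs from that of HIST1H4E in few letters, was at 0.107, 0.215 and 0.234 CPM in replicates 1, 2 and 3 of the RUNX1-IT1 ASO, against 1.35, 0.521 and 1.41 CPM in replicates 1, 2 and 3 of the control ASO. Control ASO replicate 2 was the low one of its group, on 9 implied reads, and still lay above every RUNX1-IT1 ASO library, which had 2 to 4. The means, 0.185 ± 0.0685 CPM under the RUNX1-IT1 ASO and 1.09 ± 0.497 CPM under the control ASO (SD, n = 3 each), were 5.90-fold apart. The gene was under the minimum for testing, and in the fit without it fell by 0.79 ± 0.17 on the log2 scale (SE, limma, adjusted p = 0.000522).

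HIST4H4, a lone H4 gene on chromosome 12, had the smallest fold of the members. It was at 1.18, 0.860 and 0.820 CPM in replicates 1, 2 and 3 of the RUNX1-IT1 ASO, against 2.69, 2.55 and 2.07 CPM in replicates 1, 2 and 3 of the control ASO. No RUNX1-IT1 ASO library reached the range of the control ASO libraries. It averaged 0.952 ± 0.196 CPM under the RUNX1-IT1 ASO and 2.44 ± 0.324 CPM under the control ASO (SD, n = 3 each), 2.56-fold lower, with a log2 change of -0.82 ± 0.13 (SE, limma, adjusted p = 5.86e-05). H2AFJ, which encodes a replacement variant of H2A and lies 3252 bases away, averaged 32.01 ± 2.79 CPM under the RUNX1-IT1 ASO and 69.1 ± 3.02 CPM under the control ASO (SD, n = 3 each), 2.16-fold lower.

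**Figure D3:**
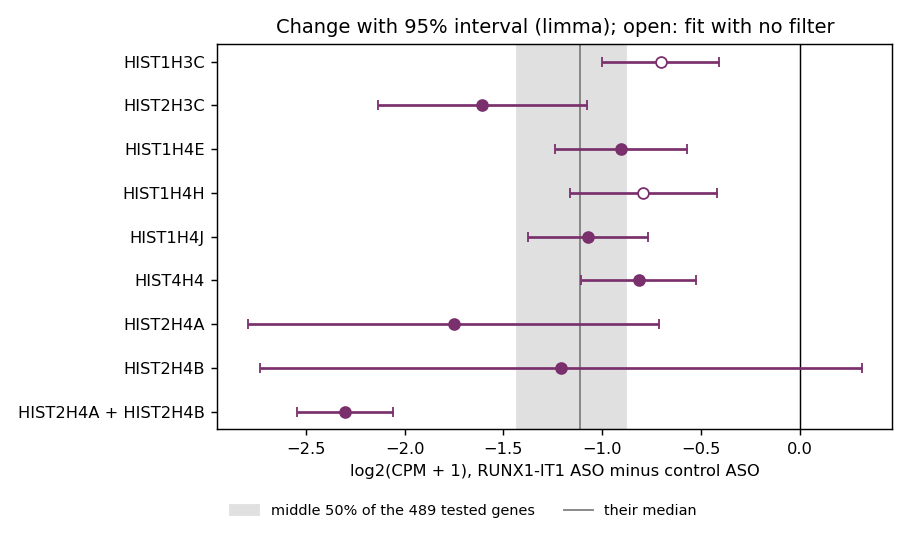
Change of log2(CPM + 1), RUNX1-IT1 ASO minus control ASO, with the 95% interval from limma for each member and for the sum of HIST2H4A and HIST2H4B. Open points are the 2 genes under 1 CPM, from a fit with no filter. Grey marks the middle of the 489 tested genes, between -1.43 and -0.88, with their median at -1.11. The sum, at -2.30, lies to the left of the grey band, and the interval of HIST2H4B reaches 0.31.

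Set beside the rest of the table, a lower value was the rule and not a mark of these genes. Of the 8 members 6 were tested, and 5 of them were called lower and 0 higher, while 477 of 489 tested genes (97.5%) were called lower and 10 higher. The minimum for testing was on the mean over all 6 libraries. HIST1H4E, HIST1H4J, HIST2H3C and HIST4H4 averaged 0.635, 0.369, 0.424 and 0.952 CPM under the RUNX1-IT1 ASO, in this order. They met the minimum only through the control ASO libraries, so their calls are not independent evidence of a change. In the fit without a minimum 7 of 8 members were called lower, against 97.3% of 771 genes. In 6 of 8 members every RUNX1-IT1 ASO library lay below every control ASO library, as in 95.7% of all named genes. The median log2 change of the 6 tested members was -1.14, and that of all tested genes was -1.11. By fold of the group means the members ranged between 2.56 and 8.64 with a median of 5.50, and the median of all named genes was 3.25. Both medians of the members count HIST2H4A and HIST2H4B as separate genes. With their sum as 1 entry, HIST1H4J is the middle one in both, at a log2 change of -1.07 and a fold of 5.10. The sum of HIST2H4A and HIST2H4B lay further out, since 18 of 488 tested rows had a more negative log2 change, and 136 of 771 genes (17.6%) had a fold at least as large.

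Because nearly all listed genes were lower, the fit was repeated after each library was rescaled to the same total over the listed entries, which gives each member's change relative to the other listed genes. The median over all tested genes then moved to -0.06 from -1.11, and 24.1% of them were called lower. The sum of HIST2H4A and HIST2H4B was still called, with a log2 change of -1.0 (limma, adjusted p = 1.88e-05). HIST2H3C was also called at -0.86 (limma, adjusted p = 0.0193). The values were -0.43 for HIST1H4J, -0.58 for HIST2H4A, -0.30 for HIST2H4B and -0.12 for HIST1H4E, none of them called. HIST4H4 turned to 0.09 (limma, adjusted p = 0.687). HIST1H3C and HIST1H4H, in the fit without a minimum, were at -0.17 and -0.34 and not called. With control ASO replicate 1 also left out, a setting chosen after the values were seen, the sum was at -0.96 (limma, adjusted p = 0.00023) and HIST2H3C at -0.52 (limma, adjusted p = 0.0374). After rescaling, the lower calls were thus on the sum and on HIST2H3C, both of the chromosome 1 cluster. Neither HIST2H4A nor HIST2H4B alone was called, nor was any member of chromosomes 6 and 12. These calls do not by themselves set the clusters apart, since log2(CPM + 1) understates changes of low genes. By fold of the group means before rescaling, HIST1H4H at 5.90 and HIST1H4J at 5.10 were near the 6.08 of the sum. These folds are imprecise, with 2 to 4 implied reads per RUNX1-IT1 ASO library for HIST1H4H and 4 to 9 for HIST1H4J. Leaving out 1 library moved the fold of HIST1H4H between 4.87 and 7.44. HIST1H3C at 3.78, HIST1H4E at 3.22 and HIST4H4 at 2.56 were further below it. A difference between clusters was not tested.

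The part of HIST2H4A and HIST2H4B in the summed signal was somewhat smaller in the RUNX1-IT1 ASO libraries, a difference that was not tested. HIST2H4A and HIST2H4B together made up 48.6, 54.0 and 58.7% of the summed CPM of the 8 members in RUNX1-IT1 ASO replicates 1, 2 and 3, against 59.8, 64.8 and 63.2% in control ASO replicates 1, 2 and 3. Every RUNX1-IT1 ASO library was below every control ASO library in this share, but the margin was narrow. It lay between 58.7% in RUNX1-IT1 ASO replicate 3, on 61 of 104 implied reads, and 59.8% in control ASO replicate 1. The H3 genes made up 10.1, 12.9 and 11.5% in RUNX1-IT1 ASO replicates 1, 2 and 3, against 19.8, 10.8 and 12.3% in control ASO replicates 1, 2 and 3, with overlapping groups. These are shares of CPM, without correction for transcript length.

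Other histone genes were described by the same counts. Of 29 H3 and H4 genes looked for, 21 are not listed. Of 35 replication-dependent H2A and H2B genes 9 are listed, and the 6 tested were all called lower, with a median log2 change of -1.24, beside a lower call for 97.5% of all tested genes and their median of -1.11. The 9 listed genes summed to 10.9 to 12.5 CPM in RUNX1-IT1 ASO libraries and 36.9 to 43.4 CPM in control ASO libraries, a 3.33-fold difference of the means, against 5.25-fold for the H3 and H4 members. HIST2H2BE, an H2B gene of the chromosome 1 cluster, was 4.51-fold lower, at 1.61 ± 0.188 CPM under the RUNX1-IT1 ASO and 7.28 ± 1.01 CPM under the control ASO (SD, n = 3 each). HIST1H2BD was 3.66-fold, HIST2H2AA3 3.13-fold and HIST1H2AG 3.10-fold lower. After rescaling to equal totals HIST2H2BE was still called lower, at -0.53 (limma, adjusted p = 0.00900), while HIST2H2AA3, of the same cluster, was at -0.14 (limma, adjusted p = 0.362), and HIST1H2AG and HIST1H2BD, at -0.11 and -0.28, were not called either. Of 12 replacement variants, which are made outside S phase as well, H2AFJ alone is listed, and after rescaling it turned to 0.38 and was called higher (limma, adjusted p = 0.0011). None of 6 H1 linker histone genes, 14 genes of histone mRNA processing and transcription, 17 chaperone and import genes for H3 and H4, or 21 S phase and proliferation genes is listed, so their changes are not analysed here.

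RNAs that lack a poly(A) tail for other reasons were lower too, as were nearly all listed genes. The labels call the libraries mRNA-focused, and 5 of 32 small RNAs without poly(A) tails are listed, with 4 of 4 tested called lower, beside 97.5% of all tested genes. The 5 listed RNAs summed to 6.67 to 8.77 CPM in RUNX1-IT1 ASO libraries and 27.6 to 32.3 CPM in control ASO libraries, 3.95-fold lower. SNORD3A, a U3 small nucleolar RNA with near-identical copies, averaged 4.40 ± 0.533 CPM under the RUNX1-IT1 ASO and 19.2 ± 1.08 CPM under the control ASO (SD, n = 3 each). SNORD3D, a further U3 entry, is also listed but was not among the 32, so the counts and the sum leave it out. It was called lower too, with a log2 change of -1.65 (limma, adjusted p = 8.48e-09). RPPH1, the RNA of ribonuclease P, was 4.17-fold lower, RN7SK, which holds the elongation factor P-TEFb inactive, 3.87-fold, and RNU12, a small nuclear RNA of the minor spliceosome, 2.65-fold. After rescaling to equal totals SNORD3A was still called lower, at -0.58 (limma, adjusted p = 0.00238). RN7SK at -0.34, RPPH1 at -0.33 and RNU12 at 0.065 were not called (limma, adjusted p = 0.235, 0.158 and 0.729). How the carry-over of RNAs without tails compared between the libraries, and its part in the H3 and H4 values, was not tested.

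**Figure D4:**
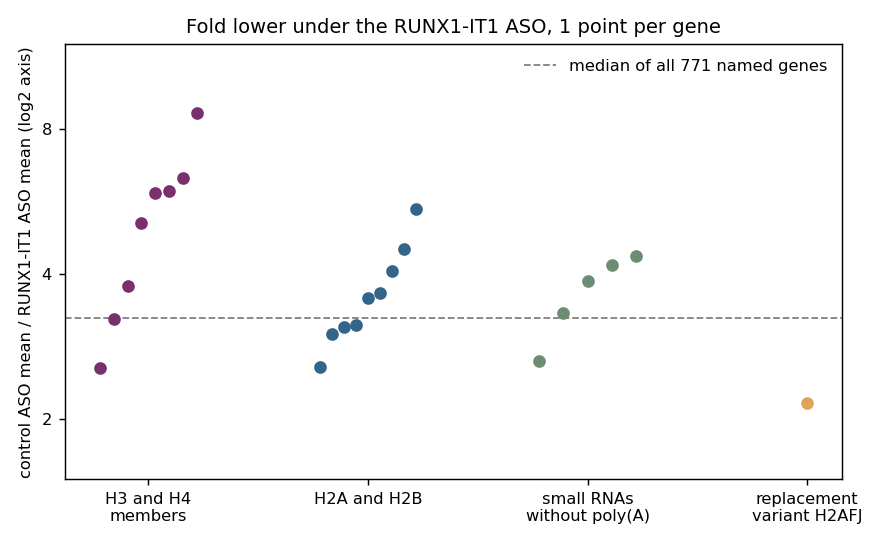
Fold of the group means, control ASO over RUNX1-IT1 ASO on a log2 axis, so that higher points are genes further lower under the RUNX1-IT1 ASO. Points are the 8 H3 and H4 members, the 9 listed H2A and H2B genes, the 5 listed small RNAs and H2AFJ. The dashed line is the median of all 771 named genes, 3.25. The members range between 2.56 and 8.64, and H2AFJ is at 2.16.

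The genes whose pattern over the 6 libraries was most like the sum of the 8 members were EGR2, an immediate early zinc finger factor, TNFAIP3, a feedback inhibitor of NF-kB signalling, and CDKN2B, a cell cycle inhibitor. Likeness was the root mean square distance of the log2(CPM + 1) values, each centred on its own mean, over 163 named genes outside the histones with at least 5 CPM. The distance was 0.0790 for EGR2, 0.0842 for TNFAIP3 and 0.114 for CDKN2B, against a median of 0.483. EGR2 was at 4.01, 4.89 and 5.10 CPM in replicates 1, 2 and 3 of the RUNX1-IT1 ASO, against 28.6, 23.6 and 26.8 CPM in replicates 1, 2 and 3 of the control ASO. In both EGR2 and the sum of the members, control ASO replicate 1 was the highest library, control ASO replicate 2 the lowest of its group and RUNX1-IT1 ASO replicate 1 the lowest of all. TNFAIP3 and CDKN2B shared these positions. Of RUNX1-IT1 ASO replicates 2 and 3, EGR2 and TNFAIP3 were higher in replicate 3, and CDKN2B and the sum in replicate 2. The total over all listed entries was also lowest in RUNX1-IT1 ASO replicate 1, at 3628 CPM. Among control ASO libraries it was lowest in replicate 2, at 10175 CPM, and highest in replicate 3, at 11070 CPM. The distance includes the difference between groups, for which the entries appear to have been picked.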

How the data were processed

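The values deposited by the authors are CPM, 1 per entry and library, and this unit was read from the values. The submitters' processing notes name FastQC 0.11.9, fastp 0.22.0 and the build GRCh38. The aligner, counter, annotation, strand setting and treatment of reads that match several genes are not given in the sources used here. Members and gene lists were chosen with earlier results of these data known. In R 4.3.3, limma 3.58.1 with a mean-variance trend was fitted to log2(CPM + 1), with group as the only term. The fit covered the 489 entries that carry a symbol and average 1 CPM or more over all libraries. Calls are at a Benjamini-Hochberg adjusted p under 0.05 over all of them, and log2(CPM + 1) understates changes of low genes. For the sum, its row replaced those of HIST2H4A and HIST2H4B. The fit was tested on simulated data. Low values in each library lay on even steps within 0.1 step, but the smallest control ASO values were 2 to 5 steps, so a return to whole reads was not assumed, and implied reads are a guide to depth. The labels number the replicates and do not say whether they were separate cultures, so the p-values speak only for the spread among these libraries, and part of it may be technical. Replicates differed by more than sampling noise, with a chi-square per gene of 1.93 to 3.55 for pairs of libraries of the same group. Named were all members, up to 4 genes of each list by smallest adjusted p, and the 3 genes most like the members' sum. HIST2H2AA3 beside HIST2H3C and H2AFJ beside HIST4H4 were placed there as neighbours, and SNORD3D, outside the lists, was named beside SNORD3A. Stem-loops and coding parts came from GENCODE release 29, and promoters from RefSeq.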

Additional observations from a re-analysis of the deposited data

How the results depend on the processing

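The sum of HIST2H4A and HIST2H4B was called lower under all 16 alternatives, with log2 changes between -2.58 and -0.82, and HIST2H3C under all 15, between -2.69 and -0.52. After rescaling to equal totals and by the median of ratios, in this order, the log2 changes were -0.17 and -0.089 for HIST1H3C, -0.12 and -0.022 for HIST1H4E, -0.34 and -0.25 for HIST1H4H, -0.43 and -0.31 for HIST1H4J and -0.58 and -0.43 for HIST2H4A, none of them called. HIST4H4 turned to 0.087 and 0.19, not called. Counts of genes called lower and higher were 118 and 43 after the first rescaling, 102 and 106 after the second, 750 and 19 with no filter, 165 and 0 when genes had to average 5 CPM or more, where 165 were tested, and 20 were called higher with entries without a symbol included. With the replicate number as a replicate block HIST2H4B was called (-1.21, limma, adjusted p = 0.0455). Same-numbered libraries deviated with correlations of -0.24, -0.10 and -0.02, which showed no pairing by number. They cannot exclude it, since deviations within a group are tied to each other and the labels do not say. Leaving out 1 library in turn gave log2 changes of -2.39 to -0.32 for HIST2H4B, called without control ASO replicate 1, and differences in the HIST2H4A share of -20.5 to 23.1 percentage points. Under these alternatives no other call on a member or on the sum changed, and leaving out 1 library gave 477 to 478 genes called lower and 10 to 11 called higher. A count test on implied reads was not run, since whole reads were not recovered. Members outside the pair had 2 to 22 implied reads in RUNX1-IT1 ASO libraries, which limits their precision.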
